A study of Homo sapiens with 6 samples.

Results

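The enzymes described here act on the way from squalene epoxide to cholesterol, and the side-chain reductase of that route is not among them. They are 9 genes, chosen by symbol as the enzymes that act after squalene in sterol synthesis and read in pathway order: LSS, CYP51A1, TM7SF2, MSMO1, NSDHL, HSD17B7, EBP, SC5D and DHCR7. All 9 are among the 34036 genes of the count table, and all 9 passed the filter on low counts, which left 14476 genes to test. RNA was sequenced in HepG2, a human cell line from a hepatocellular carcinoma, 48 h after transfection with a nontargeting siRNA (siControl, 3 libraries) or with an siRNA pool against DGUOK (siDGUOK, 3 libraries). The treatment field of the labels names siControl for all 6 libraries, so groups were taken from the titles. DGUOK is the mitochondrial kinase that phosphorylates purine deoxynucleosides.

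Cholesterol synthesis starts in the cytosol from acetyl-CoA and passes through mevalonate to squalene. In the endoplasmic reticulum, squalene epoxide is folded into lanosterol, the first sterol, which then loses methyl groups and has its double bonds moved and reduced until cholesterol is left. Liver cells make cholesterol for membranes, lipoproteins and bile acids, and the transcription factors of the SREBP family control most genes of the pathway.

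The libraries held 19065684, 18915508 and 10527216 counts in siControl replicates 1, 2 and 3, and 18613138, 15978314 and 21334876 counts in siDGUOK replicates 1, 2 and 3. Levels are given in CPM, a count relative to the scaled size of its library. Log2 fold changes are siDGUOK over siControl ± standard error, with p-values from edgeR's quasi-likelihood test, adjusted over all genes by the Benjamini-Hochberg method. The targeted gene, DGUOK (ENSG00000114956; GRCh38 chromosome 2, 73926826 to 73958961), was at 54.4, 53.1 and 48.2 CPM in siControl replicates 1, 2 and 3 and at 9.08, 10.5 and 6.72 CPM in siDGUOK replicates 1, 2 and 3. Each siDGUOK library lay below each siControl library, and the log2 fold change came to −2.57 ± 0.19 (adjusted p = 1.64e-08). The series describes the replicates as biological and independent.

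The 9 post-squalene enzymes were lower in siDGUOK than in siControl cells. Calls needed an adjusted p below 0.05 and a log2 fold change beyond 0.5 in either direction. By this rule 8 of the 9 enzymes were called lower and none higher, where 6.68% of all genes tested were called lower and 7.42% higher. SC5D, the exception, passed the adjusted p but had a log2 fold change of −0.49. A first fit, with library sizes taken over the filtered genes, had SC5D at −0.50 and 9 of 9 called lower, and the full library sizes used here were chosen after both results were seen. At the adjusted p alone, 9 of 9 were lower, beside 9.35% of all genes. The groups did not overlap for any of the 9, with siDGUOK below siControl, beside 17.3% of all genes. Their median log2 fold change was −0.65 and ran from −0.96 to −0.49, where the median of all genes tested was 0.02. The levels of the 9 summed to 1566, 1623 and 1605 CPM in siControl replicates 1, 2 and 3 and to 1032, 977 and 983 CPM in siDGUOK replicates 1, 2 and 3. In bulk RNA, fewer cells with a transcript and less of it per cell cannot be told apart.

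**Figure D1:**
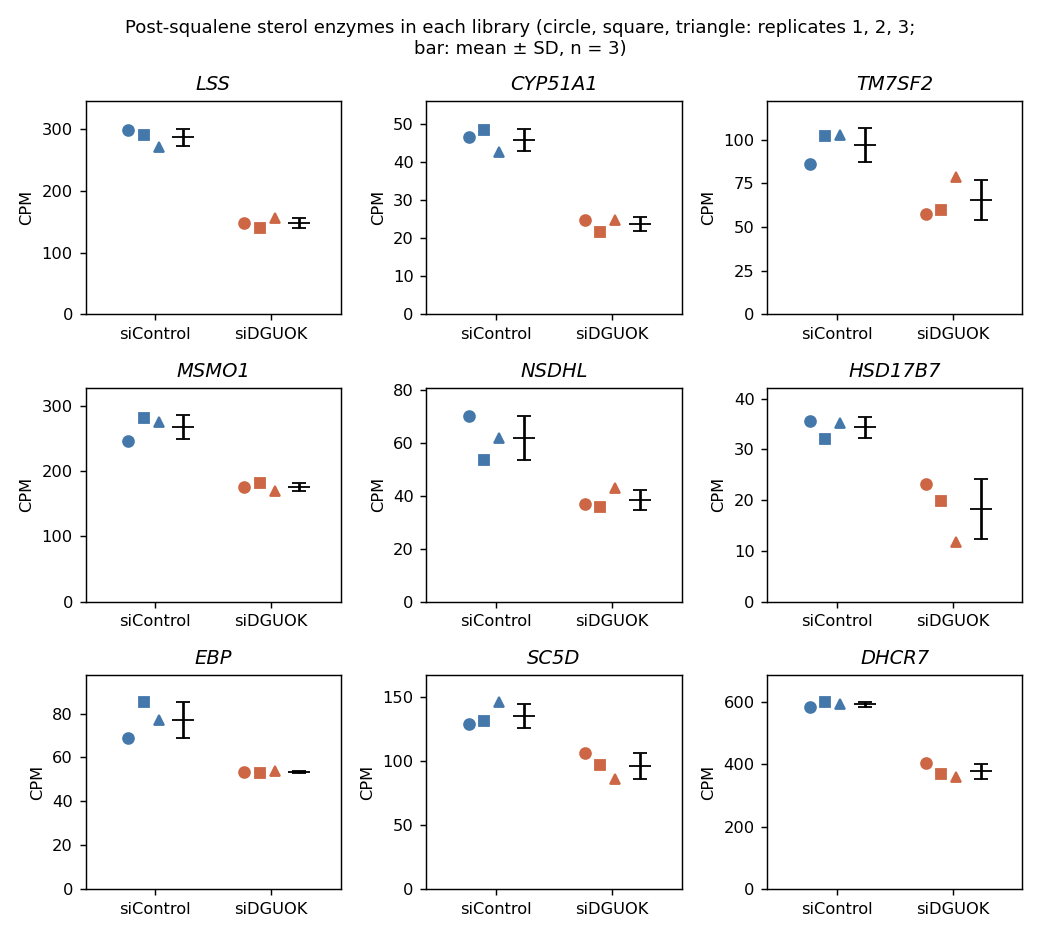
Level in CPM (vertical axes, from 0) of each of the 9 enzymes in the 3 siControl and 3 siDGUOK libraries; symbols mark the replicate and bars the mean ± SD. In every panel the siDGUOK points lie below the siControl points, from DHCR7 at 592 against 378 CPM to HSD17B7 at 34.3 against 18.3 CPM.

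The first steps after squalene epoxide were among those with the largest changes. LSS, lanosterol synthase, folds the epoxide into lanosterol (ENSG00000160285; GRCh38 chromosome 21, 46188141 to 46228824, minus strand). It was at 299, 290.0 and 271 CPM in siControl replicates 1, 2 and 3 and at 148, 139.7 and 156 CPM in siDGUOK replicates 1, 2 and 3. Its libraries were close within each group, and the gap between the groups was wide. The means were 287 ± 14 and 148 ± 8.1 CPM (SD, n = 3), and the level fell to 51.6% of that of siControl (log2 fold change −0.96 ± 0.08, adjusted p = 1.23e-07). Antisense genes share 7.88% of its exonic bases, where reads are counted for neither gene.

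CYP51A1, the cytochrome P450 that removes the methyl group at carbon 14 of lanosterol, changed by nearly the same factor (ENSG00000001630; chromosome 7, 92084987 to 92134803, minus strand). Its level was 46.5, 48.4 and 42.7 CPM in siControl replicates 1, 2 and 3 and 24.7, 21.7 and 24.8 CPM in siDGUOK replicates 1, 2 and 3. Within a group the libraries differed little, as for LSS. The log2 fold change was −0.95 ± 0.15 (adjusted p = 0.000157). Of its exonic bases, 5.9% are shared with AKAP9 and CYP51A1-AS1, which lie on the opposite strand. CYP51A1-AS1 itself had at most 15 counts in a library, and the processed copies CYP51A1P1 and CYP51A1P2 had at most 5 and 11.

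The log2 ratio of LSS to CYP51A1 was 2.68, 2.58 and 2.66 in siControl replicates 1, 2 and 3 and 2.58, 2.68 and 2.65 in siDGUOK replicates 1, 2 and 3. The groups overlapped, and their means differed by −0.01 on the log2 scale (p = 0.80, exact permutation test, two-sided; adjusted p = 0.91 over 8 pairs of neighbours).

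The sequence before the start sites is shown for 3 of the enzymes. RefSeq gives 11 windows of 300 bases for the 9 genes (250 before to 50 after a start; GRCh38.p14), with a pair of starts each for SC5D and DHCR7. LSS and CYP51A1 are shown for their changes and NSDHL for the number of its matches to CCAAT, the letters bound by the factor NF-Y. Capitals mark CCAAT on either strand, so that ATTGG is a match on the other strand.
LSS: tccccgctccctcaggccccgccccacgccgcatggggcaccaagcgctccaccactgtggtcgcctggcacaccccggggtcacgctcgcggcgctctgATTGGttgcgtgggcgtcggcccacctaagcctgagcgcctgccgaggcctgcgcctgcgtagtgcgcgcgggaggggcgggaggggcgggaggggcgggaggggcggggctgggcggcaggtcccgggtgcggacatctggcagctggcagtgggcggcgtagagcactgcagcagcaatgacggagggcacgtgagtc
CYP51A1: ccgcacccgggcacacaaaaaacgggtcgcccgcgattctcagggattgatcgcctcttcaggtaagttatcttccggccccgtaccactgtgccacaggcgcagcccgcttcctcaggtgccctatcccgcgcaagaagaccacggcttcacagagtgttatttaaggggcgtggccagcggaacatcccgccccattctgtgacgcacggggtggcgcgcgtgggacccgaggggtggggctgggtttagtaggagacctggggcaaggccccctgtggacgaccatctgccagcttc
NSDHL: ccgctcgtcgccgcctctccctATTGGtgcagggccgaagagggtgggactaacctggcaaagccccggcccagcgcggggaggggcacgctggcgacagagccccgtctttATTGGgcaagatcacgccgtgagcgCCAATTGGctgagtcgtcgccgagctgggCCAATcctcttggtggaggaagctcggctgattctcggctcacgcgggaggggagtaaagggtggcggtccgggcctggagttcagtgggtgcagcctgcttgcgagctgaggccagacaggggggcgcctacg
The windows lie at chr21:46228725-46229024 (minus strand) for LSS, chr7:92134428-92134727 (minus strand) for CYP51A1 and chrX:152830813-152831112 (plus strand) for NSDHL. The LSS window has 1 match, that of CYP51A1 has none and that of NSDHL has 5, of which a pair overlaps. LSS and CYP51A1 thus differ in this count, whose relation to the fold changes was not tested.

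CCAAT was found in 9 of the 11 windows (81.8%) and in 34.6% of the 35116 RefSeq promoter windows of the same length. The windows without it were that of CYP51A1 and the second of DHCR7. GGGCGG, the GC box, was found in 9 of the 11 windows and in 45% of all windows, and CACGTG, an E-box, in 3 of the 11 and in 7.26% of all. The pair of SC5D windows overlap, and their CCAAT and E-box matches are the same sites, so that CCAAT was found for 8 of the 9 genes and the E-box for LSS and SC5D alone. The letters TCACNCCAC, a form of the sterol regulatory element, were in 0 of the 11 windows and in 1.13% of all windows. Related lists, described below, had similar shares of the GC box. It was in 84.6% of windows for the mevalonate arm, 77.8% for SREBP control, 75% for electron donors and 69.2% for sterol efflux. CCAAT was in 53.8%, 33.3%, 62.5% and 30.8% of the windows of these lists. TCACNCCAC was in 0 of 13, 1 of 9, 0 of 8 and 0 of 13 of their windows. A match so rare over all windows is hardly to be expected in 11, so its absence from the member windows says little. These counts are matches of letters on both strands of a short window and say nothing of binding. The member windows are rich in G and C, from 57% to 75% of their bases, and the shares were not adjusted for base content.

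**Figure D2:**
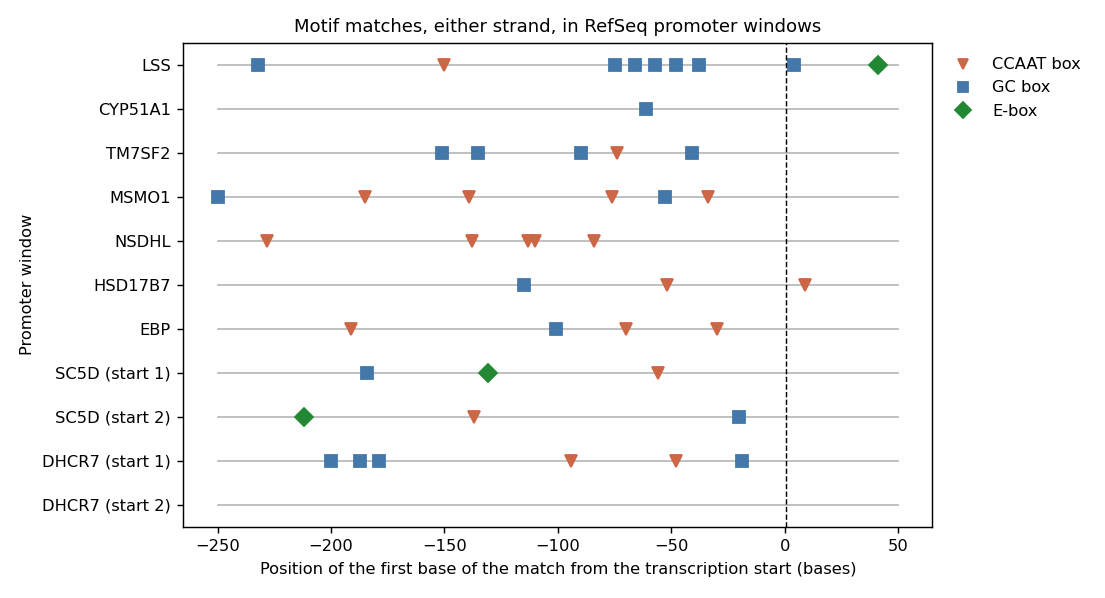
Position of the first base of each match (horizontal axis, bases from the transcription start, dashed line) in the 11 promoter windows of the 9 enzymes, with triangles for the CCAAT box, squares for the GC box and diamonds for the E-box. The CCAAT box is present in 9 of 11 windows and absent from that of CYP51A1 and the second of DHCR7; the SC5D windows overlap and share a CCAAT site.

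TM7SF2 reduces the double bond at carbon 14 that CYP51A1 leaves (ENSG00000149809; chromosome 11, 65111845 to 65116384). It was at 85.9, 102 and 103 CPM in siControl replicates 1, 2 and 3 and at 57.7, 59.8 and 78.7 CPM in siDGUOK replicates 1, 2 and 3. The third siDGUOK library came nearest to the siControl libraries without overlapping them. The log2 fold change was −0.56 ± 0.13 (adjusted p = 0.00389). Without siDGUOK replicate 1 it was −0.50 and the gene was no longer called. LBR, a protein of the inner nuclear membrane, is the other C14 reductase of the cell. It was at 66, 56.2 and 60.8 CPM in siControl and at 58.3, 55.7 and 43.3 CPM in siDGUOK replicates 1, 2 and 3, so that the groups overlapped. Its log2 fold change was −0.22 ± 0.14 (adjusted p = 0.307), −0.32 without siDGUOK replicate 1 and −0.11 without siDGUOK replicate 3, and the difference between the changes of both reductases was not tested.

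The next 3 enzymes remove the methyl groups at carbon 4. MSMO1 oxidises these methyl groups (ENSG00000052802; chromosome 4, 165327667 to 165343164). Its level was 246, 281 and 275 CPM in siControl replicates 1, 2 and 3 and 176, 182 and 169.9 CPM in siDGUOK replicates 1, 2 and 3, a log2 fold change of −0.60 ± 0.08 (adjusted p = 3.03e-05). The siDGUOK libraries lay within a narrow range. NSDHL, the dehydrogenase that takes off the oxidised group as carbon dioxide (ENSG00000147383; chromosome X, 152830967 to 152869729), was at 70.4, 53.7 and 62 CPM in siControl and at 37, 35.9 and 42.9 CPM in siDGUOK replicates 1, 2 and 3. Its siControl libraries spread more than its siDGUOK libraries. The change was −0.68 ± 0.14 on the log2 scale (adjusted p = 0.00165).

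HSD17B7 reduces the ketone left at carbon 3, which completes the removal (ENSG00000132196; chromosome 1, 162790702 to 162812823). It had the fewest counts of the 9 enzymes, at 35.7, 32 and 35.3 CPM in siControl replicates 1, 2 and 3 and at 23.2, 19.9 and 11.8 CPM in siDGUOK replicates 1, 2 and 3. The third siDGUOK library stood apart below the others. The log2 fold change was −0.91 ± 0.22 (adjusted p = 0.00517), and −0.68 without that library, still called. The pseudogene HSD17B7P2 had 113, 66 and 77 counts in siControl and 59, 91 and 123 counts in siDGUOK replicates 1, 2 and 3, beside 669, 600 and 370 and 429, 323 and 256 counts of HSD17B7. Reads that align to both are not counted, so the level of HSD17B7 is uncertain.

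The last 3 enzymes rearrange the double bonds of the ring. EBP, the isomerase that moves the double bond within the B ring, is also known as the emopamil binding protein (ENSG00000147155; chromosome X, 48521799 to 48528716). Its level was 69, 85.4 and 77.2 CPM in siControl replicates 1, 2 and 3 and 53.5, 52.8 and 53.8 CPM in siDGUOK replicates 1, 2 and 3. The siDGUOK libraries were almost equal, and the siControl libraries were spread over a wider range above them. EBP lay just inside the fold change threshold, at −0.53 ± 0.12 (adjusted p = 0.00329), and at −0.45, outside it, without siControl replicate 2.

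SC5D, the desaturase that adds a double bond at carbon 5, lay just outside the threshold (ENSG00000109929; chromosome 11, 121292681 to 121313410). It was at 129, 131 and 146 CPM in siControl replicates 1, 2 and 3 and at 106, 96.8 and 85.9 CPM in siDGUOK replicates 1, 2 and 3. The groups did not overlap, and the log2 fold change was −0.49 ± 0.10 (adjusted p = 0.00189). Whether SC5D is called turns on the settings. It was called in a test limited to a mean TPM above 10, at −0.50, without siControl replicate 1, at −0.52, without siControl replicate 2, at −0.51, and without siDGUOK replicate 1, at −0.58. It was also called in the first fit, with library sizes over the filtered genes. The TPM filter, those library sizes and the fit without siControl replicate 1 each gave 9 of 9 enzymes called.

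DHCR7 reduces the double bond at carbon 7 to give cholesterol, and its substrate is also the precursor of vitamin D (ENSG00000172893; chromosome 11, 71428193 to 71452868, minus strand). It had the most counts of the 9, at 584, 600.1 and 593 CPM in siControl replicates 1, 2 and 3 and 406, 368 and 359.6 CPM in siDGUOK replicates 1, 2 and 3. Replicates were tight in siControl, and siDGUOK replicate 1 was the highest of its group. The means were 592 ± 8.14 and 378 ± 24.9 CPM (SD, n = 3), and the log2 fold change came to −0.65 ± 0.07 (adjusted p = 3.9e-06).

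Compared per length, as CPM per kilobase of exon, the enzymes spanned a wide range of levels. In siControl the mean was highest for MSMO1, at 93.7 ± 6.46, followed by DHCR7 at 86.1 ± 1.18 and EBP at 43.7 ± 4.64 CPM per kilobase (SD, n = 3). LSS, NSDHL and TM7SF2 followed at 39.6, 31.1 and 28.4, then SC5D at 13.5, CYP51A1 at 11 and HSD17B7 at 7.17 CPM per kilobase. Of neighbours in this order, the libraries of MSMO1 and DHCR7, of EBP and LSS and of NSDHL and TM7SF2 overlapped, and those of the other pairs did not. In siDGUOK the order of the means was the same, with 61.7 for MSMO1 and 3.82 for HSD17B7 CPM per kilobase, and the overlapping neighbours were LSS with NSDHL and NSDHL with TM7SF2. The highest mean was 13.1 times the lowest in siControl and 16.1 times in siDGUOK. MSMO1 and DHCR7 made up 26.5% and 24.3% of the summed level per length in siControl and 27.4% and 24.4% in siDGUOK, and LSS made up 11.2% and 9.08%. The unit was taken in place of TPM after seeing that TRDJ2, TRDJ1 and TRDJ4, short segments of a T cell receptor gene, held 15.3%, 7.15% and 4.52% of the TPM of siDGUOK replicate 1. By TPM the order of the 9 enzymes was the same, but the test limited to a mean TPM above 10, by which 9 of 9 were called, includes that library. These lengths join all exons of a later annotation than the one the counts were made with, so that genes with long alternative exons, such as SC5D with 10054 exonic bases, come out low.

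**Figure D3:**
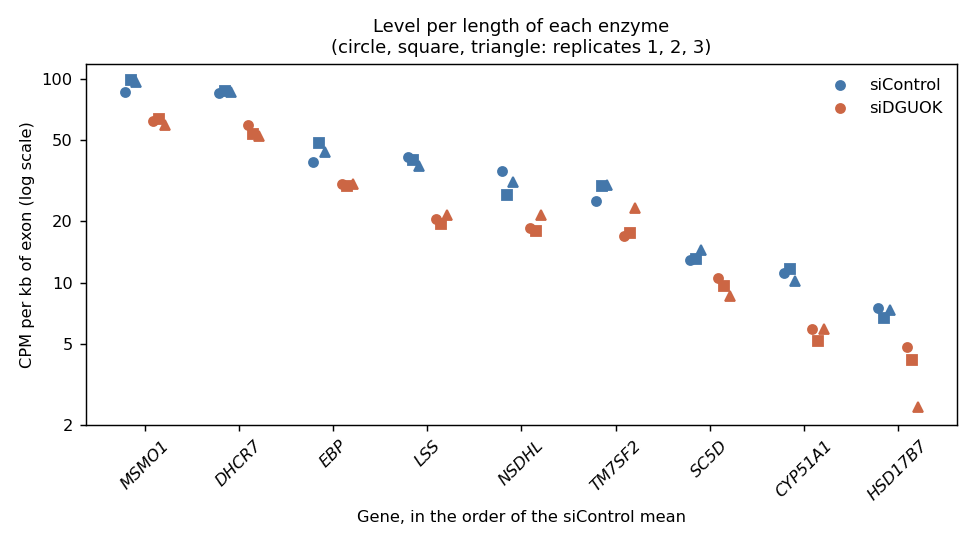
Level per length (vertical axis, CPM per kilobase of exon, log scale) of the 9 enzymes in each of the 6 libraries, ordered by the siControl mean, with a symbol for each replicate. The order runs from MSMO1 to HSD17B7 in both groups, 13.1-fold from end to end in siControl and 16.1-fold in siDGUOK.

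Along the pathway, the ratio of each enzyme to the next was compared between the groups. With 3 libraries against 3, the exact permutation test cannot give a p below 0.10. The groups overlapped for all 8 pairs, and no p was below 0.20. The widest difference was that of HSD17B7 to EBP, with a log2 ratio of −1.16 ± 0.24 in siControl and −1.60 ± 0.52 in siDGUOK (SD, n = 3; p = 0.30, exact permutation test, two-sided; adjusted p = 0.80 over 8 pairs). CYP51A1 to TM7SF2 went from −1.07 ± 0.19 to −1.45 ± 0.22 (SD, n = 3; p = 0.20, exact permutation test; adjusted p = 0.80). The number of pairs whose groups did not overlap rose from 0 to 2 without siControl replicate 3 or siDGUOK replicate 3, and to 1 without siControl replicate 2 or siDGUOK replicate 1. The log2 ratio of HSD17B7 to EBP was −1.20, −1.40 and −2.18 in siDGUOK replicates 1, 2 and 3. Its rank as the widest difference rests on replicate 3. A design of this size cannot show that the ratios are equal.

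By size of the change, LSS, CYP51A1 and HSD17B7 came before the other 6 enzymes, though HSD17B7 did so only with siDGUOK replicate 3. Differences in change between enzymes were not tested beyond the ratios of neighbours, whose groups overlapped. The level left in siDGUOK cells was 51.6% of that in siControl for LSS, 51.7% for CYP51A1 and 53.2% for HSD17B7. It was 62.3% for NSDHL, 63.8% for DHCR7, 65.8% for MSMO1 and 67.6% for TM7SF2. EBP and SC5D kept the most, at 69.2% and 71.2%. The 3 largest changes were at steps 1, 2 and 6 of the pathway, and the smallest, of SC5D, was at step 8. Abundance differed among the enzymes with the largest changes. By siControl mean CPM among all genes tested, LSS was at percentile 96.6 and CYP51A1 at percentile 71.2, while DHCR7 was at percentile 98.5 and HSD17B7 at percentile 63.8. Leaving out single libraries left LSS at −0.92 or below, CYP51A1 at −0.89 or below and DHCR7 between −0.72 and −0.62. MSMO1 stayed between −0.66 and −0.57 and NSDHL between −0.78 and −0.58. HSD17B7 moved most, between −1.14 and −0.68, and its call held throughout. For TM7SF2 the range was −0.73 to −0.50, for EBP −0.61 to −0.45 and for SC5D −0.58 to −0.42, and these were the enzymes whose calls depended on the libraries used.

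Within the groups, no library was the highest or the lowest for all 9 enzymes. In log2 CPM, 4, 6 and 7 of the 9 lay above their group mean in siControl replicates 1, 2 and 3 and 7, 3 and 5 in siDGUOK replicates 1, 2 and 3. By rank, siDGUOK replicate 3 was the highest of its group for 5 of the 9 enzymes and the lowest for the other 4. The median deviation of the 9 from their group mean lay between −0.04 and 0.02 in every library. The widest deviations were those of HSD17B7, at 0.40 and −0.57 in siDGUOK replicates 1 and 3, and of TM7SF2, at 0.28 in siDGUOK replicate 3.

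Upstream, in the arm from acetyl-CoA to squalene epoxide, 11 listed genes are reported, of which 10 were tested. Of these, 5 were called lower and none higher, where 6.68% of all genes tested were called lower. Their median log2 fold change was −0.56, beside −0.65 for the post-squalene enzymes. HMGCS1, which makes HMG-CoA, was at 518, 470 and 523 CPM in siControl and at 141, 129 and 129 CPM in siDGUOK replicates 1, 2 and 3, lower than any post-squalene enzyme in fold change (−1.92 ± 0.08, adjusted p = 1.21e-11). SQLE, which makes the epoxide that LSS uses, had a log2 fold change of −0.50 that rounds to the threshold and was not called (adjusted p = 7.3e-05). DESeq2, RLE scaling, the TPM filter, the library sizes over filtered genes and the fits without siControl replicate 1 or 2 or without siDGUOK replicate 1 or 3 called it.

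**Figure D4:**
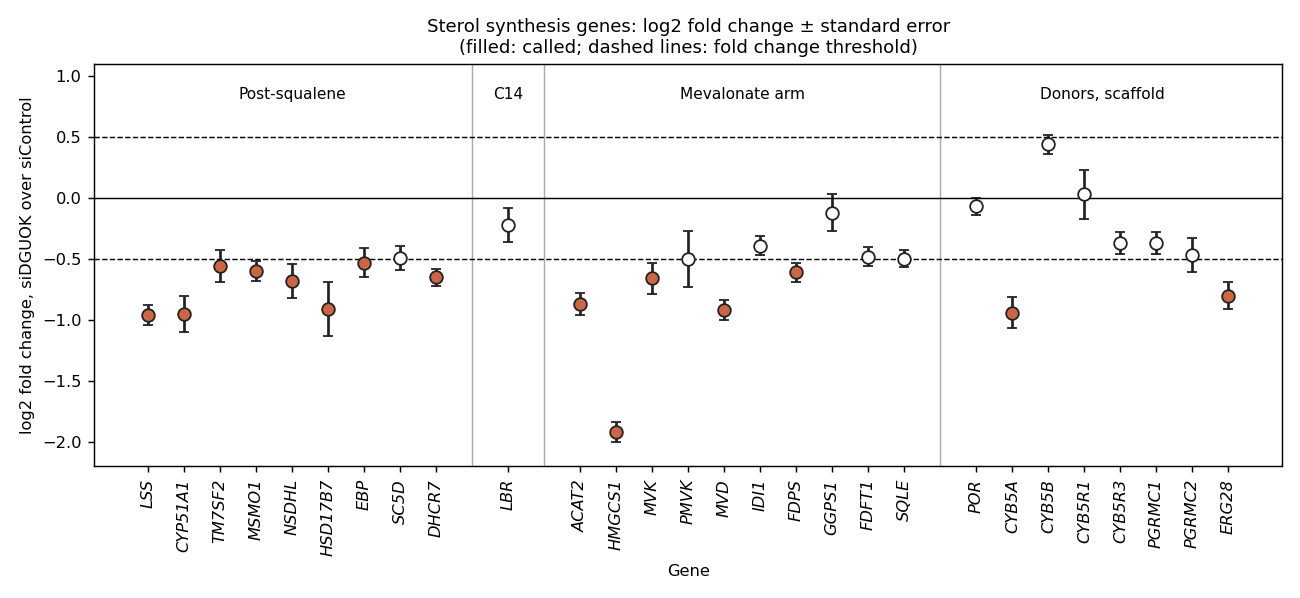
Log2 fold change of siDGUOK over siControl with its standard error (vertical axis) for the 9 post-squalene enzymes in pathway order, the second C14 reductase, the mevalonate arm and the electron donors with the scaffold; filled points were called and dashed lines mark the fold change threshold. The 9 enzymes lie between −0.96 and −0.49, and HMGCS1 lies lowest, at −1.92.

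Several of the 9 enzymes need electrons from partners in the membrane. Of 8 donors and scaffold proteins, 2 were called lower, beside 6.68% of all genes tested, and none higher. Their median log2 fold change was −0.37. POR, which feeds electrons to CYP51A1, was at 452, 480 and 472 CPM in siControl and at 458, 435 and 441 CPM in siDGUOK replicates 1, 2 and 3, and the groups overlapped (log2 fold change −0.07 ± 0.07, adjusted p = 0.55). CYB5A, cytochrome b5, which feeds MSMO1 and SC5D, fell by 0.94 on the log2 scale (adjusted p = 2.51e-05). ERG28, the scaffold that holds the enzymes of carbon 4 together in yeast, fell by 0.80 (adjusted p = 2.38e-05). Without siDGUOK replicate 1, 4 of the 8 were called lower, CYB5R3 at −0.52 and PGRMC2 at −0.60 being the additional genes. CYB5B, the other cytochrome b5, rose by 0.44 with the groups apart (adjusted p = 0.00047), short of the threshold. Groups lay apart with siDGUOK higher for 2702 of the 14476 genes tested. Of the paralogs outside the pathway, EBPL, related to EBP, was at −0.00 (adjusted p = 0.988). FAXDC2, of the family of MSMO1 and SC5D, was at −1.24 and called, but not without siControl replicate 3, at −1.05.

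Of 8 reported genes of SREBP control, 2 were called lower, beside 6.68% of all genes tested, and none higher, with a median of −0.14. These were SCAP, which escorts SREBP out of the endoplasmic reticulum, at −0.64, and MBTPS2, a protease that frees SREBP, at −0.52. SREBF1 and SREBF2, which encode the SREBP factors, were at −0.25 (adjusted p = 0.111) and −0.26 (adjusted p = 0.0211), not called. The groups did not overlap for either, with siDGUOK lower, as for 17.3% of all genes. For SREBF1 they barely cleared each other, with siControl replicate 1 and siDGUOK replicate 2 both at 106 CPM when rounded. SREBF1 was at −0.16 without siControl replicate 2. INSIG2, which holds SCAP back, rose by 0.32 (adjusted p = 0.0198), short of the threshold, and by 0.20 without siDGUOK replicate 1 and 0.41 without siDGUOK replicate 2. The MBTPS2 call was lost with shrunken fold changes and without any single library but siDGUOK replicate 2. Of 11 genes of sterol efflux, esterification and LXR, 10 were tested, with a median of −0.33. Of these, 3 were called lower, beside 6.68% of all genes tested: ABCA1 at −0.58, SOAT2 at −0.68 and NPC2 at −0.74. SOAT2 was not called without siControl replicate 2, at −0.46. NPC1 rose by 0.48 with the groups apart (adjusted p = 0.000608), and was called higher without siControl replicate 2 or 3, at 0.50. Of 5 oxysterol and bile acid hydroxylases, 3 were tested and none was called, with a median of 0.08. CYP27A1 was at 0.08 (adjusted p = 0.619). CYP8B1, at −3.53, went from a mean of 1.53 to 0.126 CPM, and CYP39A1, at 3.58, from 0.178 to 2.35 CPM. With DESeq2, or without siControl replicate 1, 2 hydroxylases were called.

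Genes outside these lists had the profiles closest to that of the post-squalene enzymes. The measure was the root mean square difference, over the 6 libraries, from the median profile of the 9 in centred log2 CPM, for the 9216 genes that averaged 10 CPM or more. The nearest was ITFG1, at 0.0175, with means of 149 and 93.5 CPM in siControl and siDGUOK. It was followed by RARRES2, the precursor of chemerin, at 0.0266, ITIH3, a plasma protein of the inter-alpha-trypsin inhibitor family, at 0.0383, and AFMID, a formamidase of tryptophan breakdown, at 0.0427. ACBD3, PLOD1, GFM1, PDIA3, ADI1 and CASP4 completed the first 10, at 0.0473 to 0.0494. The 9 enzymes themselves lay between 0.0366 and 0.307 from their median. Among the sterol genes reported, ERG28 came at place 36, SCAP at 43, FDPS at 72 and SQLE at 119. A profile over 2 groups of 3 is mostly the size of 1 change, and many genes share it.

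**Figure D5:**
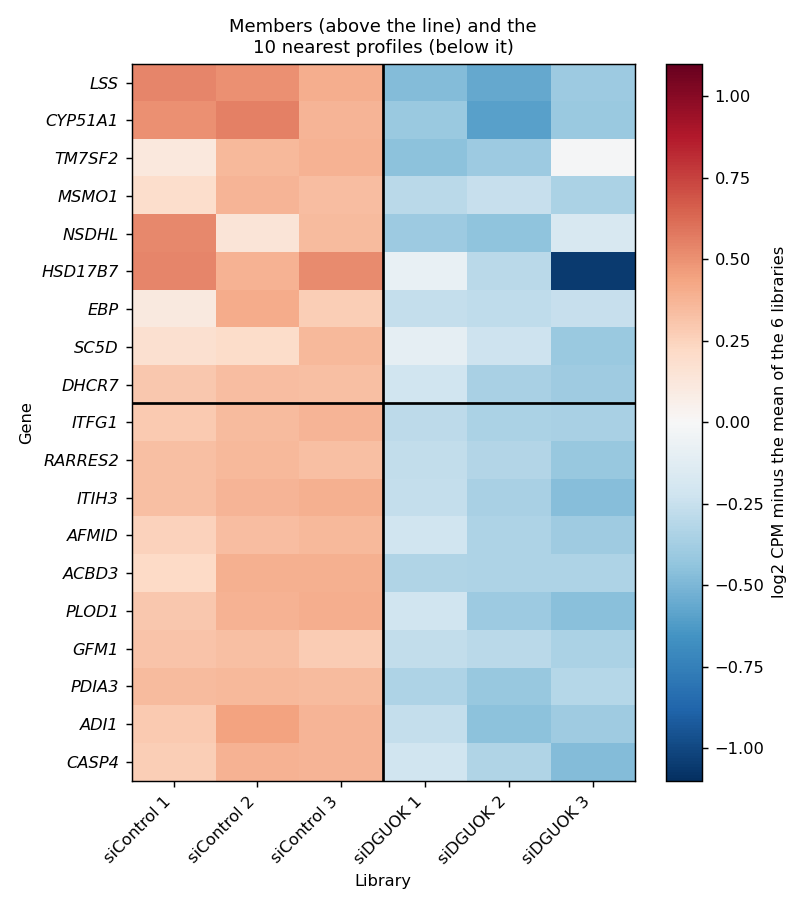
Centred log2 CPM (colour, log2 CPM minus the mean of the 6 libraries) of the 9 enzymes above the line and of the 10 genes nearest to their median profile below it, in each library. HSD17B7 in siDGUOK replicate 3, at −1.05, is the farthest value of any enzyme.

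HepG2 cells were labelled as hepatocytes, and hepatocyte markers were present and were lower too. Of 8 markers, 7 were called lower in siDGUOK, beside 6.68% of all genes tested, and SERPINA1 at 0.02 was the exception. The median log2 fold change of the 8 markers was −1.43. Their summed level was 41347, 35683 and 35525 CPM in siControl replicates 1, 2 and 3 and 20495, 18243 and 17155 CPM in siDGUOK replicates 1, 2 and 3, with ALB the most abundant in siControl and SERPINA1 in siDGUOK. Endothelial markers summed to 1.66, 1.39 and 2.29 CPM in siControl and to 4.48, 58.5 and 4.05 CPM in siDGUOK replicates 1, 2 and 3, with VWF the most abundant on average, through siDGUOK replicate 2 alone (31.4 CPM), and STAB2 at 0 in all libraries. None of the 3 endothelial markers tested was called. Leukocyte markers summed to 1616, 1709.9 and 1710.4 CPM and to 1913, 1768 and 1777 CPM, nearly all of it LYZ, and none of the 7 tested was called. Markers of fibroblasts and stellate cells summed to 12.1, 15 and 10.3 CPM and to 42.6, 54.8 and 22.1 CPM, with COL1A1 the most abundant in siDGUOK and PDGFRB in siControl. COL1A1 was called higher, at 4.04, and PDGFRB lower, at −1.02. COL1A2 had 14, 0 and 0 counts in siControl and 124, 169 and 0 counts in siDGUOK replicates 1, 2 and 3. COL3A1 had 0, 1 and 0 counts in siControl and 148, 254 and 9 in siDGUOK. DCN and LRAT had 0 in siControl, and 21, 26 and 0 and 7, 0 and 11 counts in siDGUOK. The part of these changes in those of the enzymes was not tested. Without siDGUOK replicate 2, 8 of the 9 enzymes were called. Without siDGUOK replicate 1, in which 21057 genes had a count against 16205 to 17583 in the other libraries, 8 were called as well, with SC5D in and TM7SF2 out.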

How the data were processed

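The authors deposited raw counts per gene, whole numbers without normalization. They aligned reads to GRCh38 with STAR 2.6.1 and counted them on Gencode 27 genes with featureCounts 1.6.5 with a minimum quality and otherwise default settings, after removal of low-complexity reads; these settings take no account of strand and drop reads with more than 1 alignment or gene. Counts were filtered with filterByExpr (minimum count 10), scaled by TMM over full library sizes, fitted with the robust quasi-likelihood model of edgeR 4.0.16 in R 4.3.3, and adjusted over all genes tested. Standard errors are the absolute log2 fold change over the root of F. Log2 CPM used a prior count of 2. Lengths came from Gencode 44. Alternatives were DESeq2 1.42.0, with and without shrinkage, other scalings and filters, the replicate block and each library left out. Scripts were tested on simulated data, where a first target for recovery was not met, since changes at low counts were often missed. That target was then replaced by checks of the p-values, of the fold changes and of recovery at higher counts. Members and lists were chosen with earlier results of these data known. Named genes are the members with their antisense genes and pseudogenes, DGUOK, listed genes and the 10 nearest profiles; some listed genes are not reported here.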

Additional observations from a re-analysis of the deposited data

How the results depend on the processing

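Over the alternatives, none of the 126 fold changes computed for the 9 enzymes changed sign, and the number called lower was 8 or 9. The calls that changed were those of SC5D, EBP and TM7SF2, all near the fold change threshold. The number of genes called was 2041, and ran from 1595, with a mean TPM above 10, to 2847, with the adjusted p alone. Without single libraries it ran from 1704 to 1935. Over all other sterol lists, with the listed genes not reported here included, 16 genes were called. The number was 26 with the adjusted p alone, which drops the fold change threshold. With the replicate number as a block, 2077 genes and 8 enzymes were called. Libraries of the same number did not deviate together (correlations 0.024, 0.017 and −0.0022 across genes). The number of neighbouring pairs whose groups did not overlap ran from 0 to 2 without single libraries, where fewer libraries overlap less easily. DGUOK ran from −2.72 to −2.42 without single libraries and was −2.25 with shrunken fold changes. Library sizes over filtered genes gave 2032 genes and 9 enzymes; this was the first fit, and full library sizes replaced it after both results were seen. A further form of the sterol regulatory element was not searched for. The depth of siControl replicate 3, 10527216 counts, limits the least abundant genes.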
